A study of Mus musculus with 3 samples.

Results

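The steeply rising sites are cytosines of mouse mRNA whose level of 5-methylcytosine (m5C) was at least 25 percentage points higher in 1-cell embryos than in metaphase II (MII) oocytes. They were selected on these measured levels, among the sites listed at both stages with 50 reads or more in each and a level below 100% in the embryo. The selection gave 798 sites in 700 genes, out of 4910 sites that met the other conditions (16.3%), 8015 sites listed at both stages and 40298 distinct sites in the lists of all 3 stages. Since the levels chose the sites, the difference between these stages is described here and not tested, and a rise below means this difference between 2 libraries. The other 4112 covered sites, whose difference was under 25 points, serve as the comparison set.

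RNA bisulfite sequencing was used, in which bisulfite converts unmethylated C, which is then read as T, whereas m5C resists, and the m5C level of a base is the fraction of its reads that kept C. Wild-type C57BL/6J mice gave 1 library from germinal vesicle (GV) oocytes, 1 from MII oocytes and 1 from 1-cell embryos, with no replicate at any stage. GV oocytes, fully grown but still arrested before meiotic maturation, were taken from the ovaries of females aged 7 to 8 weeks 48 h after 10 IU of PMSG, a hormone that stimulates follicle growth. MII oocytes were taken from the oviduct 12 h after 5 IU of hCG, which triggers ovulation and was given 44 to 48 h after 10 IU of PMSG. The 1-cell embryos came from females of the same age mated with C57BL/6J males, 24 h after 5 IU of hCG that followed 5 IU of PMSG, and about 200 embryos went into the library. These are the doses and ages in the labels, and the methods of the study give other doses for the MII oocytes and the embryos and a wider age range for the oocyte donors. The labels name polyadenylated RNA for all stages, the methods name RNA depleted of ribosomal RNA, and the conversion conditions are worded differently for the oocytes and the embryos. Stage and library therefore cannot be told apart in any value below. The reads at listed sites summed to 4475058 in GV oocytes, 5285011 in MII oocytes and 2616279 in 1-cell embryos. Each list starts at a level of 10%, 20 reads and 5 unconverted reads, so a site missing from a list has no value there. Of 11 oocyte marker genes such as Gdf9 and Bmp15, 7, 9 and 11 had a listed site in the GV, MII and 1-cell lists. Of 6 granulosa and follicle cell markers, 0, 2 (Amh and Cyp19a1) and 0 did. All intervals below are 95% intervals that cover counting error only, because reads without molecular identifiers are not independent molecules.

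In mRNA, m5C is placed by methyltransferases of the NSUN family. NSUN2 methylates cytosines followed by guanine-rich sequence (Type I sites) and NSUN6 methylates the first C of the motif CUCNA (Type II sites). Before the embryonic genome becomes active, the oocyte and the new embryo live on maternal mRNA made during oocyte growth, and much of this mRNA is adenylated, translated or degraded between maturation and early cleavage.

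Shown first are sequences of steep sites with the largest rises among those with 100 reads or more at both stages, and of the most deeply read ones. All of these sequences are classed as Type I, here any site without CUCNA, as most members were. They are 29-nt windows of the spliced transcript in GRCm38 with GENCODE M21 annotation, written with T for U, and the capitals mark the measured C and the next 4 bases.
9330102E08Rik (chr6:128172053-128172081, minus strand, exon 3 of a long non-coding RNA): atgagtatggttatCAGGGacttggaagc
Daglb (chr5:143472988-143473016, plus strand, CDS in exon 3): ctgctctatatccgCCTGGcgctcttcct
Sap30bp (chr11:115964373-115964401, plus strand, CDS in exon 11): tgaagaaggccaagCAGTGaccagaggat
Aff1 (chr5:103834256-103834284, plus strand, CDS in exon 11): ttgctctcgccgctCAGGGactccccacc
Tarbp2 (chr15:102519134-102519162, plus strand, CDS in exon 2): gctggccgccaaccCGGGCaagaccccga
Uhrf1 (chr17:56303466-56303494, plus strand, 5′ UTR in exon 1): cacgcggctcccttCTGGGtcacccagcc
Tent5c (chr3:100473137-100473165, minus strand, CDS in exon 2): gatctgatctttcaCGTGGctctccccac
G6pdx (chrX:74411619-74411647, minus strand, CDS in exon 8): agaaccacctcctgCAGATgttgtgtctg
Txnip (chr3:96560584-96560612, plus strand, 3′ UTR in exon 8): gaactccagtgtttCAGAGactcagtctc

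Pairs of adjacent cytosines in which only the named one met the rule are shown next, since the coverage of both bases was nearly the same. In each the other listed site is the C directly 5′ of the capitals, whereas in some other adjacent pairs it is on the 3′ side.
Epb41 (chr4:131967938-131967966, minus strand, CDS in exon 13): ctgagtccacagacCGAAGtcctcggccc
Slc23a2 (chr2:132056177-132056205, minus strand, 3′ UTR in exon 16): tatccctgatacccCAGGAgcctattgac
Exosc10 (chr4:148563046-148563074, plus strand, CDS in exon 6): cccgcaggaccgtcCGGAGgacctggatg

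The Type II members with the most reads, of which there were few, carried CTCCA.
Klf11 (chr12:24660524-24660552, plus strand, 3′ UTR in exon 4): acctgtgtgttcctCTCCAaaaataaatg
Insm1 (chr2:146222820-146222848, plus strand, CDS in exon 1): tcctgggaccggtcCTCCActgtcccccg

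The median level of the 798 sites was 25.6% (24.2 to 27.3) in MII oocytes and 63.3% (61.2 to 64.9) in 1-cell embryos, and their median difference was 32.9 points (32.1 to 33.8). The other covered sites went from a median of 20.4% to 29.05%, with a median difference of 7.18 points (6.79 to 7.60). Levels among the steep sites ran from 10.0% to 70.4% in MII oocytes and from 36.1% to 99.5% in embryos, so they included sites that were rare before fertilization and sites already carried by most transcripts. In embryos 607 of them (76.1%) were at 50% or more and 159 (19.9%) at 80% or more. A rise of 25 points was out of reach for 150 covered sites that were above 75% in MII oocytes. The interval of the difference lay wholly at or above 25 points for 285 of the 798 sites (35.7%), and for the other 513 it reached below the threshold.

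**Figure D1:**
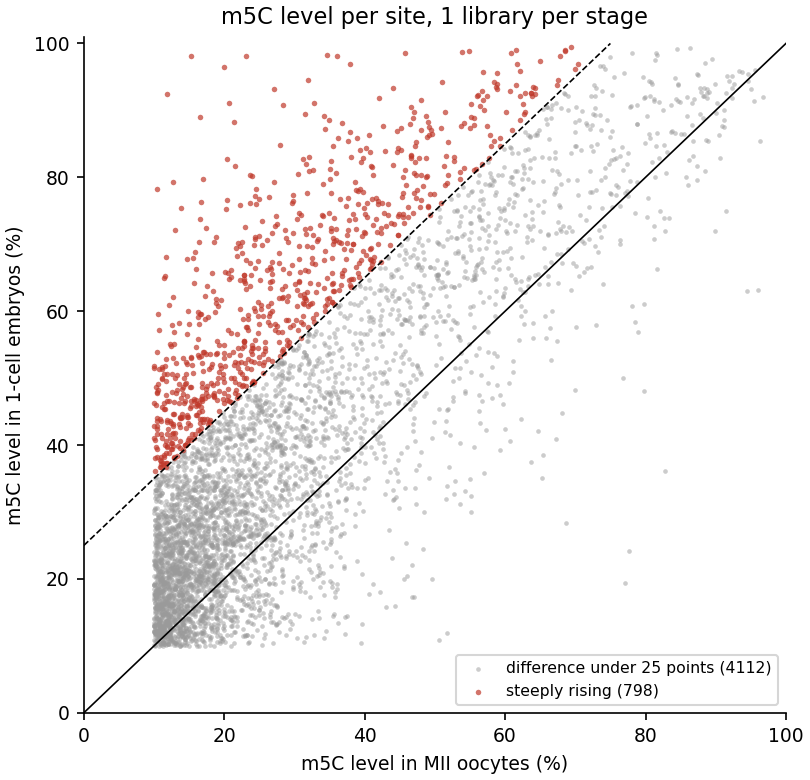
The m5C level of each of the 4910 covered sites in MII oocytes (x axis, %) and in 1-cell embryos (y axis, %). Red points are the 798 steeply rising sites, which lie on or above the dashed line of 25 points by selection, grey points are the other 4112 sites, and the solid line marks equal levels.

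Sites at the edge of the rule had nearly equal differences on both sides of it. Sec61b, which encodes a subunit of the translocation channel of the endoplasmic reticulum, rose by 25.01 points, from 49.3% to 74.4%. The zinc finger gene Zfp46 followed with 25.04 points, and Anxa7, an annexin gene, with 25.04 points. Just outside were Pex19, a peroxisome assembly factor, at 24.99 points, Srp72, of the signal recognition particle, at 24.96 points, and Phf3 at 24.94 points. The interval of the difference was 19.4 to 30.2 points at Sec61b and 14.4 to 35.4 points at Pex19, so these neighbours did not differ beyond counting error.

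The largest rises among sites with 100 reads or more at both stages were in genes of varied roles. The long non-coding RNA 9330102E08Rik stood at 27.1% of 262 reads in MII oocytes and at 93.1% of 131 reads in embryos, and was not listed in GV oocytes. Daglb, a diacylglycerol lipase that takes part in endocannabinoid synthesis, stood at 12.8% in GV oocytes, 17.0% in MII oocytes and 79.7% in embryos. Sap30bp, named for its binding to a histone deacetylase complex subunit, was not listed in GV oocytes and stood at 11.8% and 68.1%. In all of these the embryo stood far above both oocyte stages or above the only oocyte stage listed. For MII oocytes the rule and the ranking require this.

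Several of these sites lay in genes of RNA and chromatin biology. Sfpq, an RNA-binding paraspeckle protein, read 17.1%, 23.7% and 76.2% at the GV, MII and 1-cell stages. Aff1, a scaffold of the complex that promotes transcription elongation, read 13.5%, 25% and 76.7%. Tarbp2, a partner of Dicer in small RNA processing, read 27.7%, 36.2% and 85.9%. At each of these 3 sites the GV and MII levels were within 12 points of each other, whereas the embryo stood 49.6 to 52.5 points above MII oocytes. Uhrf1, which maintains DNA methylation, carried a site in its 5′ UTR at 25.9%, 32.6% and 81.1%. Eif3c, a subunit of a translation initiation factor, read 39.5%, 37.7% and 85.5%. Strap and Abt1 completed the 10 with rises of 48.9 and 56.3 points.

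The 6 most deeply read members rose by 25.6 to 37.7 points, with narrow intervals. Tent5c, a non-canonical poly(A) polymerase gene, was read 6883, 6658 and 1968 times at the GV, MII and 1-cell stages, and its level went from 14.2% (13.4 to 15.1) to 20.9% (20.0 to 21.9) and 46.5% (44.3 to 48.7). Its paralog Tent5b went from 22.7% to 32.7% and 58.3% (55.9 to 60.8). The Tent5c and Tent5b sites thus rose by 25.6 points each, with overlapping intervals, from different starting levels.

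G6pdx, which encodes the first enzyme of the pentose phosphate pathway, went from 50.5% to 62.1% and 88.5%. Txnip, an inhibitor of thioredoxin, went from 42.2% to 58.0% and 84.7%. Oas1e, of the oligoadenylate synthetase family, had the largest rise among the 6 deepest sites, from 20.4% and 26.8% to 64.5% (61.02 to 67.8). Rasa4, a GTPase-activating protein for Ras, went from 12.0% and 14.7% to 44.1%. None of the intervals of the embryo overlapped those of either oocyte stage at these 6 sites. The rule and the depth of these sites largely fix this. The embryo interval lay above both oocyte intervals at 669 of the 670 steep sites listed in GV oocytes.

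**Figure D2:**
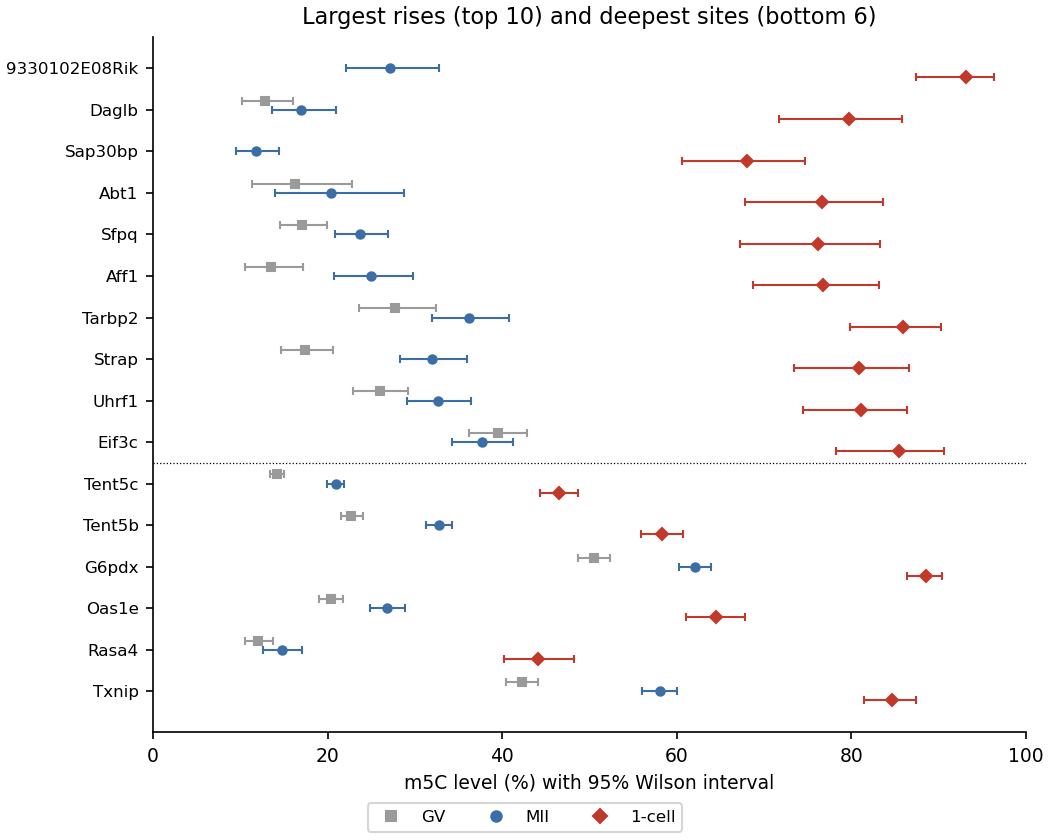
The m5C level (x axis, %) at the 10 steep sites with the largest rise among those with 100 reads or more at both stages (above the dotted line) and at the 6 with the most reads (below it). Squares, circles and diamonds are GV oocytes, MII oocytes and 1-cell embryos, bars are 95% Wilson intervals, and 9330102E08Rik and Sap30bp have no GV value. At all 16 sites the diamond lies to the right of the other symbols, which the rule requires for MII oocytes.

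Where shallower sites were included, Ints3, a subunit of the Integrator complex that processes RNA polymerase II transcripts, had the largest difference. Its 3′ UTR site stood at 10.96% of 219 reads in GV oocytes, 15.3% of 222 reads in MII oocytes and 98.1% of 52 reads in embryos. Ston2, an endocytic adaptor, followed with 11.9% in MII oocytes and 92.5% of 53 reads in embryos. Heatr5b came next with 16.7%, 20.0% and 96.4% of 56 reads. These 3 sites were named after their values were seen, and all had under 60 reads in the embryo.

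Coverage fell at nearly all steep sites, as it did at the others. Their median coverage was 286.5 reads in MII oocytes and 83 reads in embryos, against 387 and 116 reads at the other covered sites. The median ratio of 1-cell to MII reads per site was 0.334 (0.318 to 0.348), against 0.345 (0.339 to 0.352). The coverage ratio thus hardly set the steep sites apart, and the share of covered sites that were steep was 17.0%, 17.0%, 15.8% and 15.2% from the lowest to the highest quartile of that ratio. Coverage depends on the depth of each library and on the amount of the transcript, and a loss of RNA cannot be told apart from lower depth here.

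The split of the reads did set them apart, as the rule requires. Unconverted reads fell to a median of 0.786 of their MII number at the steep sites and to 0.442 at the others. Converted reads fell to 0.154 and 0.304. At 285 of the steep sites (35.7%) the embryo had more unconverted reads than MII oocytes in spite of its lower depth. This held at 357 of the other sites (8.68%) and at 13.1% of all covered sites, a contrast that the rule favours.

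**Figure D3:**
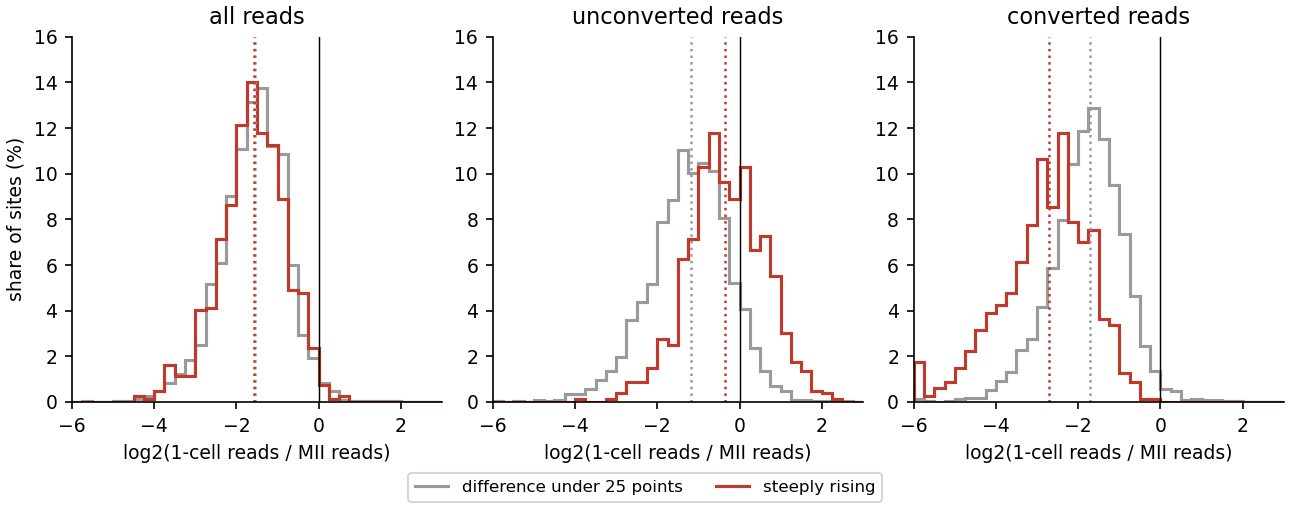
The share of sites (y axis, %) by log2 ratio of 1-cell to MII reads (x axis) for all reads, unconverted reads and converted reads, with the 798 steep sites in red and the other 4112 in grey. Dotted lines are medians and the solid line marks equal reads; the distributions of all reads nearly coincide, with medians at ratios of 0.334 and 0.345, and ratios under the left edge are drawn at it.

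The lowest coverage ratios were at Gse1, with 1935 and 93 reads (ratio 0.0481), at Hmgcs1, an enzyme of cholesterol synthesis, with 1779 and 89 reads (0.05003), and at Dcp1a, a decapping activator, with 918 and 54 reads (0.0588). The Hmgcs1 site went from 61.6% in GV oocytes and 68.5% in MII oocytes to 98.9% in embryos. A loss of reads and a rise to almost full level thus met at this site. More reads in the embryo were found at 8 steep sites (1.00%), near the 1.43% of the other sites and the 1.36% of all covered sites. Gas2l3, a cytoskeletal linker, led them with a ratio of 1.63 and levels of 30.7%, 29.03% and 70.3%. Pmm1, a phosphomannomutase, came next with 150 and 234 reads and levels of 16.8%, 20.0% and 53.0%. The other 6 were at Usp1, Trim15, Nudt1, Mettl7a1 and, with 2 adjacent sites, Kat5. These extremes were named after their values were seen.

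The share of covered sites that were steep fell with the depth in the embryo. It was 22.7% (21.03 to 24.5) at 50 to under 100 reads, 14.3% (12.6 to 16.1) at 100 to under 200 reads, 8.44% (6.74 to 10.5) at 200 to under 500 reads and 2.06% (1.00 to 4.20) at 500 reads or more. Among the covered sites, then, steep ones were more frequent at lower depth, where a level carries more counting error, while the median over the whole embryo list was 58 reads. The share of sites whose whole interval lay at 25 points or more also fell, from 7.86% (6.81 to 9.06) through 5.56% and 3.02% to 0.295% (0.0521 to 1.65). The part of counting error in the first trend was not tested.

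**Figure D4:**
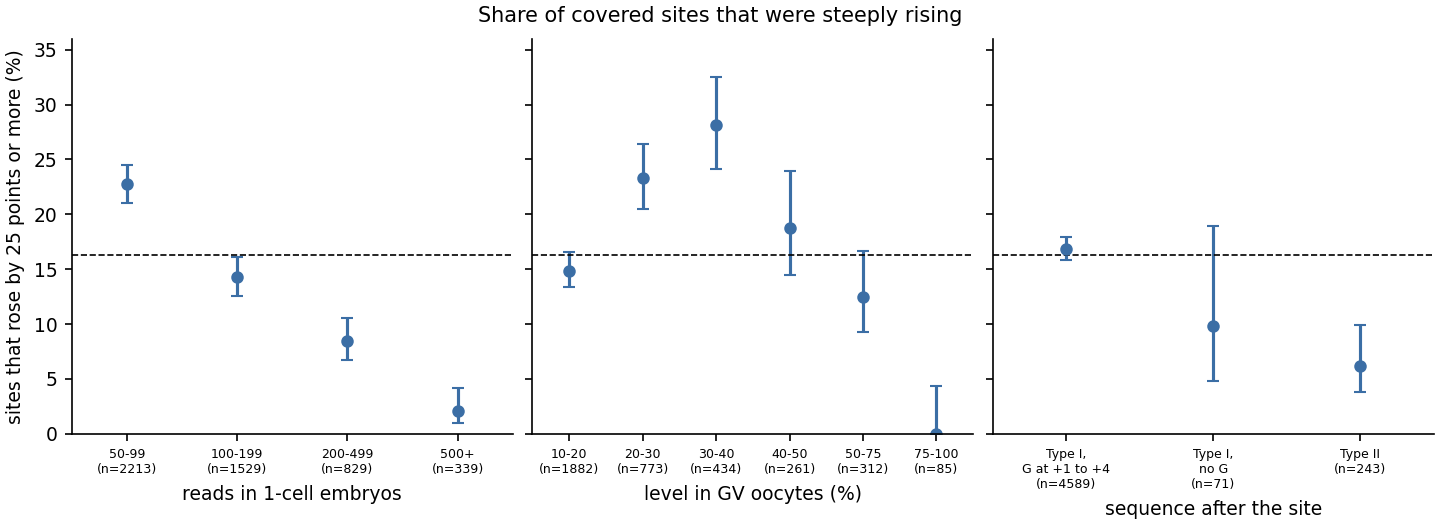
The share of covered sites that were steeply rising (y axis, %) by reads in 1-cell embryos, by level in GV oocytes and by sequence after the site, with 95% Wilson intervals and the number of covered sites under each class. The dashed line is the share over all 4910 sites, 16.3%, and the shares lie between 0% and 28.1%.

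GV oocytes listed 670 of the 798 sites (84.0%, 81.3 to 86.3), against 74.8% (73.5 to 76.1) of the other covered sites. The medians of these 670 sites were 22.8% in GV oocytes, 29.6% in MII oocytes and 66.4% in embryos. For the other sites listed in GV oocytes they were 19.3%, 25.8% and 34.1%. The step from GV to MII was therefore similar in both sets, with medians of 5.98 points (5.59 to 6.49) and 5.64 points (5.48 to 5.90), while the step into the embryo, which chose the sites, was not. The rule subtracts the MII level, so the first step is not free of the selection either.

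**Figure D5:**
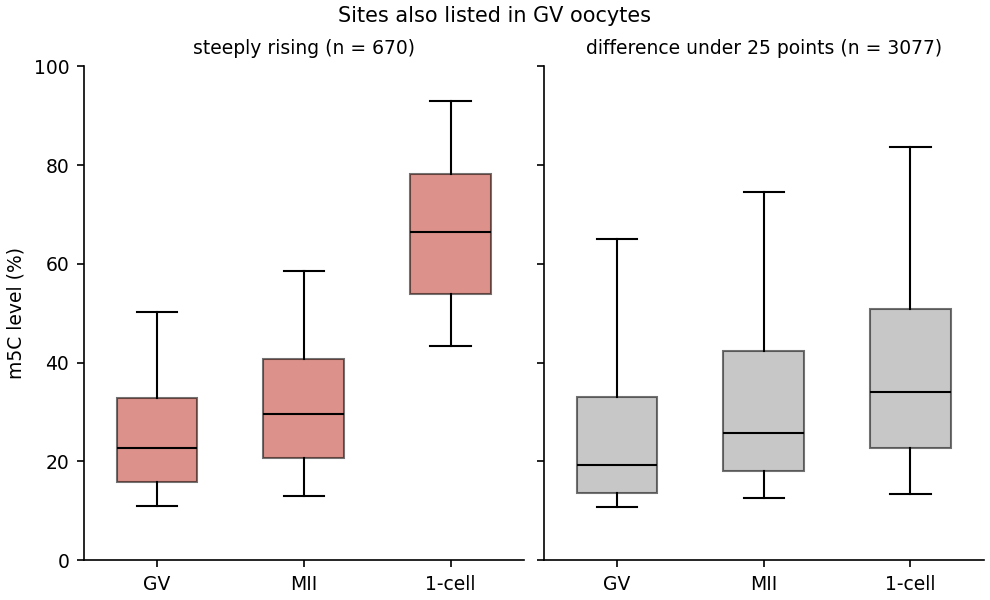
The m5C level (y axis, %) at the 3 stages for the 670 steep sites listed in GV oocytes (left) and for the 3077 other covered sites listed there (right). Boxes span the quartiles with the median inside and whiskers span the 5th to the 95th percentile; the red boxes have medians of 22.8%, 29.6% and 66.4%.

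Against the GV level, 650 of the 670 sites (97.0%) were at least 25 points higher in embryos, against 17.3% of the other sites. The selection largely fixed this contrast and it supports nothing by itself. The rule did not use the GV level, but it used the embryo level, and 565 of the 670 sites (84.3%) were lower in GV than in MII oocytes. All 670 were higher in embryos than in GV oocytes. The smallest 1-cell minus GV differences were at Rpl34 (13.3 points), Use1 (15.5 points) and Tbc1d13 (18.1 points), which were named after their values were seen.

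The share of covered sites that were steep differed between classes of the GV level. It was 14.9% (13.3 to 16.6) at GV levels of 10 to 20%, 23.3% (20.4 to 26.4) at 20 to 30%, 28.1% (24.1 to 32.5) at 30 to 40%, 18.8% (14.5 to 24.0) at 40 to 50% and 12.5% (9.28 to 16.6) at 50 to 75%. The peak was thus at intermediate levels, and 0 of the 85 sites above 75% were steep, where the ceiling of 100% left little room. The 128 steep sites not listed in GV oocytes were low in MII oocytes, with a median of 12.6% (11.9 to 13.7), near the limit of the lists, and reached 47.4% (45.6 to 49.4) in embryos.

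The change from GV to MII was tested at each site with Fisher's exact test, two-sided, adjusted by the Benjamini-Hochberg method over all 12954 sites of both oocyte lists. It compares 2 libraries and not the stages as such, and it shares the MII library with the rule. Of the 670 steep sites 206 (30.7%) were higher in MII oocytes and 5 (0.746%) lower. Over all sites tested 19.6% were higher and 0.965% lower, and over the 3747 covered sites 39.2% and 0.747%. The share of steep sites called higher thus lay above that of all sites tested and under that of the covered sites, at a median GV coverage of 335.5 reads against 438 at the other covered sites, and these differences in share were not tested. With all reads divided by 5, to allow for reads that are copies, 7 of them remained called higher.

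Those 7 were Glrx5, Txnip, Tent5c, Tent5b, Fpgs, G6pdx and Kif14. Glrx5, an iron-sulfur cluster protein of mitochondria, was at 37.2%, 56.8% and 91.6% across the stages, on 1956, 1886 and 166 reads. Fpgs, which adds glutamates to folate, was at 27.6%, 44.9% and 74.6%. Kif14, a mitotic kinesin, was at 20.4%, 41.1% and 81.5%. In these genes the level was higher at each later stage, an order that the call and the rule together fix in advance. The largest MII minus GV differences among the steep sites were at Myom2 (30.9 points), Katnal1 (28.8), Atp6v1b2 (28.0), Dnaaf5 (27.9) and Ipcef1 (26.1). The Dnaaf5 site, in the 3′ UTR of a dynein arm assembly factor, was at 10.0%, 37.96% and 96.9%. These 7 and 5 sites were singled out after their values were seen.

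The 5 sites that were lower in MII oocytes and then steeply higher in embryos were in Rpl34, Arhgap10, Use1, Gnas and Rplp0. A low reading in the MII library favours both this call and the rule, so the p-values here are not independent of the selection. Rpl34, a protein of the large ribosomal subunit, was at 64.7%, 39.1% and 78.0%, on 900, 657 and 50 reads, and its GV to MII difference passed Fisher's exact test with an adjusted p of 5.34e-21, or 0.0034 with reads divided by 5. Rplp0, of the ribosomal stalk, was at 23.6%, 19.03% and 49.3% (adjusted p = 0.00556 by Fisher's exact test). Both ribosomal sites were thus lower in MII oocytes than at either other stage, and the embryo value of Rpl34 rests on few reads. Use1, a SNARE of traffic to the endoplasmic reticulum, was at 71.8%, 55.1% and 87.3% (adjusted p = 0.00503 by Fisher's exact test). Arhgap10 was at 56.8%, 36.8% and 88.1%. Gnas, the stimulatory G protein alpha subunit, was at 18.1%, 13.0% and 41.7% of 520 reads. Except for Rpl34, these calls were lost with reads divided by 5. Ribosomal protein genes have many processed pseudogenes, so the reads at Rpl34 and Rplp0 may include reads of near-identical copies.

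At the extremes of the GV level, Banf1, a chromatin-binding protein of the nuclear envelope, was highest with 72.7%, 69.9% and 96.1% at the 3 stages. Zwint, of the kinetochore, was at 64.2%, 59.3% and 84.7%, and Tnrc18 at 64.7%, 51.9% and 85.3%. None of these 3 GV to MII differences passed Fisher's exact test. At the low end, Tiam1, an activator of Rac, was at 10.0%, 10.5% and 39.4%. Espl1, which encodes separase, the protease that frees sister chromatids, was at 10.1%, 12.9% and 38.02%. Pard6g, a polarity protein, was at 10.1%, 17.5% and 72.4%, and Mecr, of mitochondrial fatty acid synthesis, at 10.2%, 14.4% and 40%. Sites that began at the limit of the lists thus ended at quite different levels.

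Most genes with a steep site held only 1. Of the 700 genes 615 had 1 steep site, 72 had 2 and 13 had 3, and sites of 1 gene share its transcripts and are not independent. Several covered sites were present in 1175 of the 2467 genes with any, and the remaining genes could hold no more than 1 steep site. Of the 1175 genes, 453 held a steep one and 21 held steep ones only. Over all covered sites 16.3% were steep, and these counts were not tested against that share. The 990 other covered sites of the genes with a steep site differed by a median of 6.37 points (5.53 to 7.30), against 7.39 points (6.95 to 7.87) in genes without any. All of these are under 25 points by selection, and their medians lay close together in genes with and without a steep site.

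Furin, a protease that cleaves secreted precursors, showed this in detail, with 3 steep sites among 12 covered ones. A pair in the last exon, 27 nt apart, stood at 16.7%, 18.9% and 46.7% and at 45.8%, 56.2% and 92.2% across the stages, and a site in exon 9 at 41.7%, 47.8% and 82.9%. The differences of the other 9 sites ran from -0.915 to 22.7 points. In the same transcript the covered sites of the 3′ UTR and the 5′ UTR differed by under 10 points.

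Efnb2, a ligand of Eph receptors, had 3 steep sites among 8 covered ones. A site of its 5′ UTR rose from 58.4% of 356 reads in MII oocytes to 85.4% of 130 reads in embryos and another from 45.5% to 77.6%, while a nearby site of the same exon was at 49.1% and 35.1%. Opposite directions were thus read within one exon. Gse1, a subunit of a histone deacetylase complex, had 3 steep sites among 11, with differences of 26.1, 41.3 and 32.6 points against -9.03 to 23.9 points at the others. Cntnap1, of axon junctions, had 3 of 5. Bcl2l13, a mitochondrial outer membrane protein, had all 3 of its covered sites among the steep ones, at 31.2%, 46.5% and 57.5% in MII oocytes and 61.2%, 90.5% and 92.2% in embryos. The other genes with 3 steep sites were Ice1, Lamp1, Limd1, Puf60, Rcor1, Sart3, Thop1 and Tnrc18.

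Neighbouring bases were compared as well. In 36 pairs a steep site had another covered site that was not steep within 10 nt, and the medians of the difference were 33.6 points for the steep site and 6.09 points (1.90 to 10.9) for its neighbour. In 23 of these the sites were adjacent, with medians of 33.9 and 6.30 points (2.65 to 12.0), and their embryo coverage differed by a factor of 0.895 to 1.03. In embryos the steep site was the higher one in most of these pairs, but not in Fbxw22, at 66.7% against 77.9%, nor in Gm28035, at 52.4% against 63.5%. In MII oocytes the neighbour was the higher one in 3 of the 23 pairs. The steep site was picked by its larger rise, so the contrast within a pair is a description.

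In Epb41, which links the membrane to the actin cytoskeleton, the steep C printed above went from 39.7% of 330 reads to 82.8% of 128 reads, while the C directly 5′ of it was at 14.6% and 20.9%. In Slc23a2, a vitamin C transporter, the values were 35.3% and 77.7% against 15.2% and 27.2%. In Exosc10, a catalytic subunit of the RNA exosome, they were 26.8% and 67.3% against 11.8% and 13.7%. In these 3 pairs the C closer to the guanines was the steep one and the other stayed under 30%. In Hs3st5 the order was the other way, with the steep C on the 5′ side at 26.2% and 70.6% and its 3′ neighbour at 14.9% and 21.2%. The steep C was also the 5′ one in Fbxw22, Ndufs8, Slc25a48 and Anxa7. Both orders thus occurred, and they were not counted over all 23 adjacent pairs. Within 10 nt, 36 pairs had 1 steep site and 3 had both sites steep, where 16.3% of all covered sites were steep. These counts were not tested against that share. The 3 were among 98 pairs of consecutive steep sites of a gene. They lay in Kat5, a histone acetyltransferase gene, at 35.1% and 24.4% in MII oocytes and 79.7% and 77.2% in embryos, then in Limd1 and Hnrnpul2. The genes of these pairs were chosen after their values were seen.

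In sequence the steep sites were Type I with few exceptions, where Type I stands for every site without CUCNA, whatever its guanines. CUCNA from the site on was present at 15 of the 796 steep sites with a readable window (1.88%, 1.15 to 3.09) and at 5.55% (4.89 to 6.29) of the other covered sites. Put the other way, 6.17% (3.78 to 9.93) of the 243 covered Type II sites were steep, against 16.8% (15.7 to 17.9) of the 4660 Type I sites. The order was the same within classes of embryo coverage. It was 10.3% (6.02 to 17.2) against 23.4% (21.6 to 25.3) at 50 to under 100 reads, 4.05% (1.39 to 11.3) against 14.7% (13.0 to 16.6) at 100 to under 200 reads, and 0 of 53 (0 to 6.76%) against 6.92% (5.57 to 8.56) at 200 reads or more. The Type II share was thus the lower one in each class of depth, the 2 upper classes rest on few Type II sites, and the difference was not tested.

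The 15 Type II members rose by 25.5 to 53.6 points, and the values of 5 of them follow. Insm1, a zinc finger factor of neuroendocrine cells, was at 57.3%, 63.7% and 92.6% across the stages and Klf11, a Krüppel-like factor, at 32.3%, 40.9% and 66.4%. Ksr1, a scaffold of the MAP kinase pathway, was at 10.0%, 13.9% and 47.0%. Cfap97 was at 26.5%, 25.5% and 51.9%, and Mipep, a mitochondrial peptidase, at 17.9%, 20.7% and 46.5%. These 5, named for their depth or GV level, rose by 25.5 to 33.1 points. The larger rises were at Srp68 (53.6 points), Wbp1l (53.6), Taf1a (53.0), Nab2 (52.8) and Gas2l3 (41.3), which were named after their values were seen.

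Guanines at positions +1 to +4 after the site numbered 2.21 (SD 0.907, n = 796) on average at the steep sites and 2.09 (SD 0.982) at the others. None of these positions was G at 2.76% (1.83 to 4.15) and 7.11% (6.36 to 7.94). Many sites without G are Type II, and among Type I sites without G 9.86% (4.86 to 18.98) of 71 were steep, against 16.9% (15.8 to 17.98) of those with G, intervals that overlap. The steep share was 16.7%, 16.5%, 17.1% and 18.9% with 1, 2, 3 and 4 guanines, so the number of guanines made little difference once there was 1. By the base at +2, 17.1% (15.9 to 18.5) of sites with G were steep, 16.5% (14.6 to 18.7) of those with A or T and 10.2% (7.92 to 13.1) of the 528 with C, which include all 243 Type II sites. Upstream, A at -2 was found at 36.7% (33.4 to 40.1) of the steep sites and at 31.7% (30.3 to 33.2) of the others.

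Position in the transcript and predicted structure were close to those of the other sites. The coding sequence held 72.8% (69.6 to 75.8) of the steep sites, the 5′ UTR 12.0% (9.95 to 14.5) and the 3′ UTR 14.04% (11.8 to 16.6), against 75%, 10.6% and 12.8%. Codon positions 1, 2 and 3 took 37.9%, 25.8% and 36.3%, against 38.8%, 25.1% and 36.1%. In windows centred on the site and folded in silico, the site was paired at 60.9% (57.4 to 64.2) and 60.0% of sites, positions +1 to +5 were paired at 69.3% and 68.0% on average, and the median GC content was 58.4% in both sets. The intervals of the steep sites held the values of the other sites for the coding sequence, both UTRs and pairing of the site. Of the 798 sites 789 were in protein-coding genes, and 3 in long intergenic non-coding RNAs.

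The unconverted background of the genes, recovered from the deposited p-values, moved with the selection by a small amount. Its median was 0.414% in MII oocytes and 0.522% (0.506 to 0.548) in embryos for the steep sites, against 0.410% and 0.471% (0.464 to 0.479) for the others. The median difference per site was 0.113 and 0.0759 points. The part of this background in the rise, which was 32.9 points at the median, was not tested. By chromosome the steep share ran from 10.5% on chromosome 18 to 22.5% on chromosome 16, and 2 steep sites lay on unplaced scaffolds.

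Genes of known function were read in lists chosen with earlier results of these data known, and each count stands beside the 16.3% of all covered sites. No call of a higher level in MII oocytes remained in these lists with reads divided by 5. In 37 oocyte and maternal-effect genes 7 of 96 covered sites were steep (7.29%), in Uhrf1, Brwd1, Tet3 and Kdm4a. The second Uhrf1 site, in the 3′ UTR, was at 20.5%, 26.2% and 52.8%. Brwd1, a chromatin reader needed in oocytes, was at 30.8%, 41.2% and 80.3%. Tet3, the dioxygenase that oxidizes 5-methylcytosine of DNA in the zygote, had a pair of 5′ UTR sites. One went from 42.9% and 58.8% to 93.3% of 104 reads, and the other, not listed in GV oocytes, from 10.4% to 43.6%. The sites of Kdm4a, a histone demethylase, were at 32.4%, 30.7% and 64.3% and at 12.3%, 18.4% and 49.0%. In this list 4 of the 6 sites listed in GV oocytes were called higher in MII oocytes by Fisher's exact test, a count too small to set against the 39.2% of all covered sites.

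Factors that write, read or remove m5C held 3 steep sites of 22, the Tet3 pair and Serbp1, an mRNA-binding protein, at 11.9%, 19.03% and 53.8%. Of mRNA decay and deadenylation genes 8 of 53 sites (15.1%) were steep. Cnot7, a catalytic deadenylase, was at 20.999%, 32.6% and 71.4%, and Cnot8, its paralog, at 37.9%, 55.1% and 89.0% in its 3′ UTR. Dcp1a carried another 3′ UTR site, at 42.7%, 53.8% and 98.7% of 150 reads. Of the 7 steep sites of this list that GV oocytes listed, these 3 were the ones called higher in MII oocytes by Fisher's exact test, a share near the 39.2% of all covered sites, with adjusted p of 1.01e-05, 8.24e-05 and 2.34e-09.

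Translation factors had 7 of 43 sites (16.3%). Eif4b, which assists the helicase that unwinds mRNA leaders, had sites at 26.0%, 31.8% and 62.8% and at 12.4%, 15.4% and 41.7%, and Eef2, the translocation factor of the ribosome, was at 12.4%, 11.9% and 39.9%. Of cell cycle and meiosis genes 8 of 69 sites (11.6%) were steep, among them Plk4, the kinase of centriole duplication, at 43.1%, 50.9% and 87.3%. Anapc2, of the anaphase-promoting complex, was not listed in GV oocytes and went from 11.7% to 52.8%. Chromatin modifiers had 26 of 153 (17.0%), with Kat14 going from 10.9% to 36.7% and Phf5a, which the name pattern took in although its product acts in splicing, at 10.5%, 14.97% and 41.1%. These 3 shares lay near or under the background.

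Ribosomal proteins had 5 of 28 sites (17.9%), including Mrpl37 and Mrps14 of the mitochondrial ribosome, at 34.4%, 31.6% and 81.9% and at 29.3%, 40.6% and 86.3%. Respiratory chain genes had 1 of 23 (4.35%), Ndufs8, a subunit of complex I, which went from 14.3% to 50% of 50 reads. Zinc finger (Zfp) genes had 9 of 52 (17.3%), with Zfp541 at 27.9%, 30.95% and 74.4% and Zfp750 at 21.8%, 32.5% and 61.2%. Solute carriers had 8 of 69 (11.6%), with Slc16a10, an amino acid transporter, at 32.0%, 35.0% and 62.0% and Slc25a48 at 10.7%, 16.2% and 45.9%. The lists of few sites give shares that 1 or 2 sites would shift widely.

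Ubiquitin ligases and deubiquitinases had 27 of 214 (12.6%), and 10 of the 25 listed in GV oocytes were called higher in MII oocytes by Fisher's exact test, about the 39.2% of all covered sites. Fbxw22, an F-box protein, was at 26.4%, 26.5% and 66.7%, Klhl9 at 36.6%, 40.2% and 68.4% and Trim17 at 26.8%, 35.4% and 61.3%. These named sites were not among the calls, and Fbxw22, like Oas1e above, belongs to a family with close copies that may share reads. Adhesion and matrix genes had 3 of 31 (9.68%), Fat1, a large cadherin, at 49.1%, 60.9% and 87.1%, Adamtsl1 at 11.7%, 15.8% and 41.7%, and Col4a3bp, which encodes a ceramide transfer protein and entered by its name alone.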

How the data were processed

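Per the methods of the study, trimmed reads were aligned to in silico converted sequence, and the submitters' processing notes name cutadapt 1.13, Trimmomatic 0.36, HISAT2 2.10 and Bowtie2 2.2.9, with GRCm38 as the build. Each site came with its coverage, deposited as a read count without normalization, and its m5C level, deposited as a fraction and given here in percent. The p-value deposited by the authors is that of a binomial test against the background of the gene, which was recovered from it here. The embryo list differs from the one in the supplement of the study, which was not used.

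Unconverted reads were the level times the coverage, whole to within 2.9e-05 reads. All 40281 sites on chromosomes were C in GRCm38. Genes were matched by identifier to GENCODE M21 (8345 of 8353). Steep sites needed 50 reads in both libraries and a difference of 25 points. Shares have Wilson, differences Newcombe and medians order-statistic 95% intervals. GV to MII was tested by two-sided Fisher's exact test at 0.05 after Benjamini-Hochberg adjustment. In simulated data of 12954 sites, 66.5% of 200 sites raised by 25 points and 8 unchanged sites were called. The simulated reads were drawn independently, without copies or differences between libraries, so these counts do not show how often the real data give false calls. Windows were folded with ViennaRNA 2.7.2 at 37 °C. Computations ran in Python 3.11.15 with scipy 1.17.1, pandas 2.3.3, numpy 2.4.6 and matplotlib 3.10.9.

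The members and lists were chosen with earlier results of these data known. Named were the 10 largest rises with 100 reads in both libraries, the 6 deepest sites, the 6 highest and 6 lowest GV levels with 50 reads, the sites of the 5 genes with most members, the 3 sites on either side of the threshold, all members among oocyte genes and m5C factors, up to 3 of each other list and 4 Type II sites. Alternatives were coverage of 20 or 100 reads, differences of 20 or 40 points, an interval wholly at 25 points or more, 1 site per gene, fully unconverted sites kept, reads divided by 5, another adjustment, CUCCA alone and a window of 61 nt.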

Additional observations from a re-analysis of the deposited data

How the results depend on the processing

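The number of steep sites was 294 with 100 reads or more in both libraries, 1754 with 20 or more, 1230 with a difference of 20 points, 190 with 40 points and 285 where the whole interval lay at 25 points or more, against 798. In the order of 100 reads, 20 reads, 40 points and the whole interval, the median coverage ratio was 0.358, 0.299, 0.307 and 0.318, against 0.334. Steep sites called higher in MII than in GV oocytes by Fisher's exact test numbered 113 with 100 reads, 344 with 20 points, 36 with 40 points, 73 with the whole interval and 7 with reads divided by 5, against 206. Those called lower numbered 2 with 100 reads, 12 with 20 reads, 8 with 20 points, 1 with 40 points, 3 with the whole interval, 8 with fully unconverted sites kept, 3 with 1 site per gene and 1 with reads divided by 5, against 5. The Type II share was 0.683% with 100 reads and 3.38% with 20 reads, against 1.88%. With fully unconverted sites kept, the number of steep sites, the coverage ratio, the higher calls and the Type II share moved neither beyond their interval nor by 1.5 times. With 1 site per gene 3 of these results were compared, and none moved so either. The number of steep sites is then the number of their genes, 700, by construction. With reads divided by 5, 24 of the GV to MII calls at single named sites were lost. No replicate could be left out and no paired analysis was possible because each stage had 1 library. Depth limits the embryo values, since most steep sites had under 100 reads there.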
